A study of Homo sapiens with 28 samples.

Results

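MYBL2, FOXM1 and the 5 subunits of the MuvB complex (LIN9, LIN37, LIN52, LIN54 and RBBP4) were followed in human colorectal cancer cells exposed to a CDK4/6 inhibitor, a glutaminase inhibitor or both. The members are the 7 genes of the count table that carry these symbols, each with a single entry, among 58278 genes in all. Their symbols alone decided which entries were taken, although the set was put together with earlier results of these data known.

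The 28 RNA-seq libraries came from HCT116, an established colorectal carcinoma line, here a derivative carrying luciferase and GFP that was grown under the skin of male NOD SCID mice, 5 weeks old at injection. Dosing by gavage began 8 days after injection and lasted 23 days, with vehicle (Control, 3 tumors), Palbociclib at 100 mg per kg per day (5 tumors), Telaglenastat at 150 mg per kg per day (4 tumors) or both at these doses (Combination, 4 tumors). A further 12 libraries were from cell lines derived from such tumors, 3 lines per treatment, which had been grown without drug. The labels spell the glutaminase inhibitor Telaglenestat and do not say which tumor gave which line. All groups share the transduced parental line. NOD SCID mice lack working T and B cells, but the tumors can still hold other mouse cells, whose reads were not separated from the human ones.

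MYBL2 (B-MYB) and FOXM1 are transcription factors of proliferating cells. MuvB is a small scaffold that binds DNA through LIN54 and changes partners during the cell cycle. In quiescent cells it joins the pocket proteins RBL1 or RBL2 with E2F4 or E2F5 and a TFDP subunit to form DREAM, which represses cell cycle genes, and this assembly depends on phosphorylation of LIN52 by DYRK1A. In S phase MuvB binds MYBL2 instead, and later FOXM1, and the genes of G2 and mitosis are then activated. MYBL2 is itself a target of E2F and DREAM, and CDK4/6 inhibitors act upstream of this switch by keeping RB and its relatives hypophosphorylated.

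Each library held between 6273834 and 13815675 counts. Levels are given below as CPM, counts scaled to library size, on one scaling of all 28 libraries. The epithelial marker sum (EPCAM, KRT8, KRT18, KRT19, CDH1 and CLDN4) was 1340.5 CPM or more in every library. The 3 Telaglenastat lines stood far apart from each other, with a chi-square per gene of 36.9 to 47.03 between pairs, against at most 10.94 in the other culture groups. Telaglenastat culture 1 had the lowest early-target sum of all lines (2525.8 CPM). In Telaglenastat culture 2 the MYBL2 level was 98.7 CPM against 19.996 and 32.2 CPM in the other lines of its group, and the tests of Telaglenastat lines against Control lines, Combination lines and tumors are also given without it. Among the tumors, Palbociclib tumor 2 stood apart, with a chi-square per gene of 15 to 21.49 against the rest of its group and 4.88 to 11.99 among those. A second feature bears on every Telaglenastat and Combination tumor. The level of genes, relative to their mean over all tumors, fell with the GC content of their transcripts in these libraries, by a slope of -0.342 ± 0.0358 (SD, n = 4) and -0.21 ± 0.0572 (n = 4) log2 units per SD of GC content (8.08 percentage points). In Control and Palbociclib tumors it rose, by 0.257 ± 0.00666 (n = 3) and 0.288 ± 0.109 (n = 5). Among the cultures, Telaglenastat culture 2 had the steepest slope, 0.426. The members span a wide range of GC content, so the members called with Telaglenastat or Combination tumors are also given with the trends on GC content and gene length removed from every library. Levels, ratios and sums in CPM are uncorrected. Whether the trends come from the cells or from the libraries was not tested.

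On GRCh38, MYBL2 lies at chr20:43667019-43716496 on the plus strand and its transcripts have 60.2% GC. FOXM1 lies at chr12:2857681-2877155 on the minus strand with 54.3% GC, and it shares 781 exon bases with RHNO1 and ITFG2 on the other strand. LIN37 (chr19:35748361-35754519, plus strand, 59.4% GC) shares 752 exon bases with AD000671.1 on its own strand, so its reads could not be fully told apart from those of that gene. LIN52 (chr14:74084796-74201235, plus strand) has 45.8% GC, RBBP4 (chr1:32651142-32686211, plus strand) 44.8%, LIN54 (chr4:82909973-83012926, minus strand) 40.3% and LIN9 (chr1:226231149-226309869, minus strand) 39.2%. RBBP4 has 6 pseudogenes named after it and shares 1706 exon bases with SYNC on the other strand, and how reads were divided among these is not given in the sources used here.

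RefSeq promoter windows of 300 bases (250 before to 50 after a start site, GRCh38.p14) matched 6 of the 7 members by symbol, FOXM1 being the exception. All 6 held GGCGGGA, the core of the site recognized by E2F, on one strand or the other in at least 1 window, compared with 18% of the 27305 genes with a window. The 30 bases around it are shown for the first such window of each member, read on the gene's own strand, because the motif is what their promoters share, both those of members that fell with Palbociclib (MYBL2, LIN52) and those of members that did not pass the test. Capitals mark the motif, which reads TCCCGCC where it lies on the opposite strand.

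MYBL2, chr20:43667064-43667093, plus strand: ccgacgcgcttGGCGGGAgatagaaaagtg
LIN52, chr14:74084922-74084951, plus strand: gaacctcgtttTCCCGCCgacggttggcca
LIN9, chr1:226309363-226309392, minus strand: tcctcccttccTCCCGCCcggctcggccgg
LIN37, chr19:35748641-35748670, plus strand: tccccgccttcTCCCGCCttgacttgtgac
LIN54, chr4:83010887-83010916, minus strand: gttggcggggcGGCGGGAggcttccccgga
RBBP4, chr1:32651121-32651150, plus strand: ttccccgcccaTCCCGCCattaggagcgct

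Relative to the RefSeq start, the first motif base lay at position -39 in MYBL2 and at position -23 in LIN52. TTTGAA, the CHR element that LIN54 can bind, was found in either direction in windows of LIN9, LIN37 and LIN54 and in 18.2% of all genes with a window; these letters were not in the windows of MYBL2, LIN52 or RBBP4. CCAAT was found in windows of LIN37, LIN52 and RBBP4, and in 39.7% of all genes. No motif of the 3 separated MYBL2 and LIN52 from the other members.

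In untreated tumors the members differed widely in abundance per length. RBBP4, a histone chaperone shared with other chromatin complexes, was the most abundant at 34.1 ± 0.743 (SD, n = 3) CPM per kb of exon. FOXM1 followed at 22.8 ± 1.47 and MYBL2 at 18.5 ± 2.71 CPM per kb. The other subunits were scarcer: LIN54, the DNA-binding subunit, at 4.71 ± 0.113, LIN52 at 3.59 ± 0.129, LIN9, which binds MYBL2, at 2.71 ± 0.4 and LIN37, needed for repression by DREAM, at 1.39 ± 0.305 CPM per kb. LIN37 had only 28 to 42 counts in each Control tumor, which limits what could be detected for it.

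Palbociclib lowered both factors and 1 MuvB subunit in the tumors. MYBL2 stood at 44.8, 59.6 and 49.96 CPM in the Control tumors and at 41.5, 15.2, 31.6, 23.3 and 26.5 CPM in the Palbociclib tumors. All 5 treated tumors lay below all 3 controls, and the treated tumors themselves were spread widely, with tumor 2, whose GC slope was 0.096 against 0.318 to 0.366 in the others, the lowest. The log2 fold change was -0.89 ± 0.20 (SE) with an adjusted p of 0.00983 in the quasi-likelihood test of edgeR, used for every adjusted p below. FOXM1 fell from 105, 119 and 112 CPM to 66.4, 37.5, 63.8, 49.1 and 47.8 CPM, again without overlap, a log2 fold change of -1.07 ± 0.17 (adjusted p = 0.000478). In these bulk samples, fewer cells expressing a gene and less RNA per cell cannot be told apart.

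**Figure D1:**
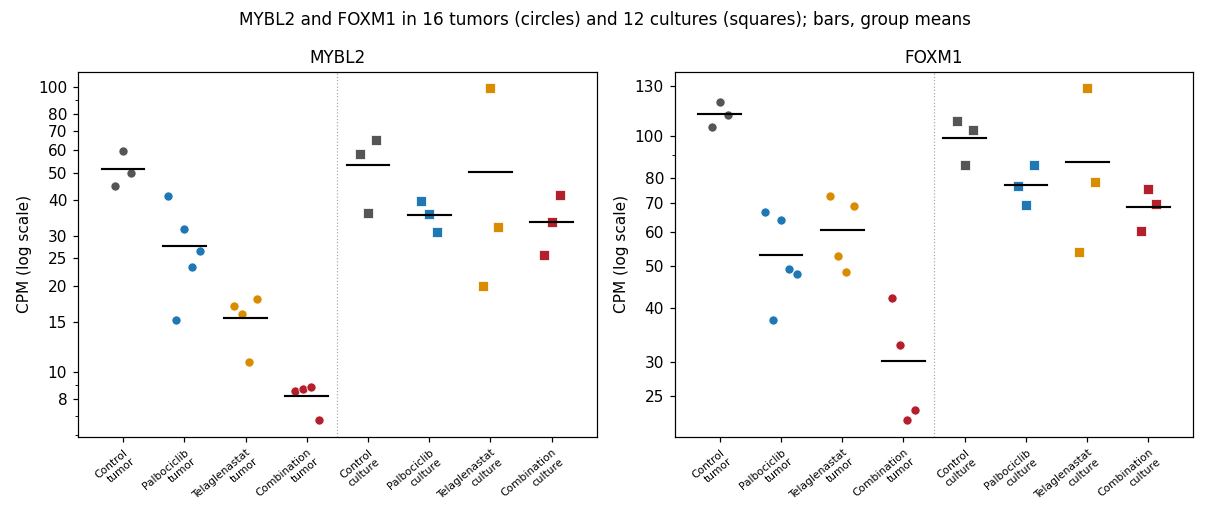
Levels of MYBL2 (left) and FOXM1 (right) in CPM on a log axis, 1 point per library, in 4 tumor groups (circles) and 4 culture groups (squares), with bars at the group means. Both genes are below every Control tumor in all treated tumors, with the lowest group means in the Combination tumors, and Telaglenastat culture 2 stands at 98.7 CPM for MYBL2.

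LIN52, the subunit whose phosphorylation sets the choice between DREAM and MYBL2, was the third member that fell with Palbociclib. Its levels were 12.8, 13.2 and 13.7 CPM in Control tumors and 9.24, 9.31, 7.70, 6.23 and 8.75 CPM in Palbociclib tumors, and the groups did not overlap. The log2 fold change was -0.68 ± 0.16 (adjusted p = 0.0126). With these, 3 of 7 members were lower and none higher, against 3.6% of all 14848 genes tested lower and 2.55% higher. Without Control tumor 2 the adjusted p was 0.0824 for MYBL2 (log2 fold change -0.77) and 0.0517 for LIN52 (-0.69), and without Control tumor 3 it was 0.0607 for LIN52 (-0.65); FOXM1 passed without any 1 library. Without Palbociclib tumor 2 all 3 passed, at -0.73 for MYBL2, -0.97 for FOXM1 and -0.73 for LIN52. Removing the GC and length trends left MYBL2 at -0.93, FOXM1 at -1.08 and LIN52 at -0.67, all 3 past the threshold.

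The other 4 subunits did not pass the test with Palbociclib. Their log2 fold changes were 0.02 ± 0.18 for LIN9, 0.04 ± 0.36 for LIN37, -0.08 ± 0.11 for LIN54 and -0.11 ± 0.07 for RBBP4. The 95% intervals ran from -0.30 to 0.14 for LIN54 and from -0.24 to 0.03 for RBBP4, so a fall as large as that of MYBL2 lay outside them. For LIN37 the interval ran from -0.65 to 0.74 on 25 to 49 counts per Palbociclib tumor.

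Both factors were also lower in Telaglenastat tumors than in Control tumors. MYBL2 was at 17.0, 15.9, 10.8 and 18.02 CPM in the Telaglenastat tumors, all below every Control tumor, and its fitted log2 difference was -1.84 ± 0.23 (adjusted p = 1.57e-06). FOXM1 was at 72.4, 52.6, 48.4 and 68.8 CPM, also below every Control tumor, with -0.99 ± 0.18 (adjusted p = 0.000169). These changes moved with the GC trend: once it was removed, the log2 fold change of MYBL2 was -0.67 ± 0.19, still past the threshold, and that of FOXM1 was -0.53 ± 0.18, short of it. With a replicate block in that corrected fit MYBL2 was not called either.

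Of the MuvB subunits, GC-rich LIN37 was lower and RBBP4 was higher in Telaglenastat tumors. LIN37 had 12, 9, 6 and 14 counts there against 28, 42 and 37 counts in Control tumors. Its log2 fold change was -1.45 ± 0.40 (adjusted p = 0.00516), and it was -0.37 ± 0.39 and not called after removal of the trends. RBBP4 rose from 316, 322 and 330.2 CPM to 455, 464, 496 and 469 CPM, by 0.44 ± 0.07 on the log2 scale (adjusted p = 4.38e-05), and by 0.18 ± 0.06 without the trends, still called. LIN9 (15.8 to 19.5 CPM against 10.8 to 14.1) and LIN54 (36.3 to 44.3 CPM against 31.1 to 32.6) lay above all controls, but their log2 fold changes of 0.42 ± 0.19 and 0.26 ± 0.12 missed the threshold, with adjusted p of 0.0721 and 0.0689, and were 0.02 and -0.11 without the trends. DESeq2 called both higher. LIN52, which fell with Palbociclib, was at 13.001 to 16.4 CPM, a log2 fold change of 0.08 ± 0.17, and of -0.13 without the trends.

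In all, 3 of 7 members were lower and 1 higher with Telaglenastat, where 28.5% of all genes were lower and 22.6% higher. After removal of the trends 1 member was lower and 1 higher, against 7.48% and 5.54% of all genes. Markers of stromal cells also differed between these groups. The fibroblast marker sum (COL1A1, COL1A2, COL3A1, DCN, LUM and PDGFRB) was 48.0 to 61.1 CPM in Telaglenastat tumors and 151 to 192 CPM in Control tumors, with DCN and LUM at 0 in both groups, and all 3 markers abundant enough to test were lower. The epithelial marker sum was lower too, 1581.5 to 1744 against 2701 to 3237 CPM. Of the 6 epithelial markers 4 were lower and 1 higher, and 4 were lower and none higher without the trends. The immune marker sum (PTPRC, CD68, LYZ and CSF1R) was 2.71 to 9.91 against 14.2 to 19.6 CPM. Their part in the values of the members was not tested.

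The Combination gave the lowest levels of both factors. MYBL2 was at 8.54, 8.70, 8.84 and 6.77 CPM, a log2 fold change of -2.75 ± 0.24 against Control (adjusted p = 6.34e-08), or 0.149 times the Control level. FOXM1 was at 42.2, 32.9, 22.03 and 23.3 CPM, with -2.01 ± 0.19 (adjusted p = 1.48e-07). No Combination tumor overlapped with a Control tumor for either gene. Without the GC and length trends the changes were -1.81 ± 0.20 for MYBL2 and -1.62 ± 0.19 for FOXM1, both past the threshold, so the change of MYBL2 was smaller by about 1 log2 unit while that of FOXM1 moved less.

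LIN52 and LIN37 were also lower with the Combination. LIN52 stood at 7.55, 10.1, 10.7 and 10.3 CPM, below every Control tumor, at -0.55 ± 0.17 (adjusted p = 0.0129) and at -0.74 ± 0.17 without the trends, past the threshold both ways. LIN37 had 7, 9, 10 and 27 counts, at -1.08 ± 0.39 (adjusted p = 0.0316). That call was lost without the trends (-0.22 ± 0.38) and also without Control tumor 2, Control tumor 3 or any one of Combination tumors 1, 2 and 3, where the adjusted p was 0.0829 to 0.0955. RBBP4 was at 412, 399.8, 359.6 and 361 CPM, above every Control tumor, but its log2 fold change of 0.14 ± 0.07 missed the threshold (adjusted p = 0.107). DESeq2 called it higher, and without the trends it was not called. LIN9 and LIN54 were at 0.04 ± 0.19 and -0.05 ± 0.12, and without the trends at -0.23 and -0.26, not called. Members called were 4 of 7 lower and none higher, against 26.9% of all genes lower and 17.6% higher, and 3 of 7 lower without the trends, against 13.1% of genes in either direction. Fibroblast marker sums were 95.1 to 142 CPM in these tumors and 3 of 6 markers were tested, of which COL1A1 was lower. The epithelial sum was 2297 to 2579 CPM, below every Control tumor, with 3 of 6 markers lower and 2 higher, and 1 of 3 immune markers tested, CD68, was lower. Their part in the values was not tested.

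**Figure D2:**
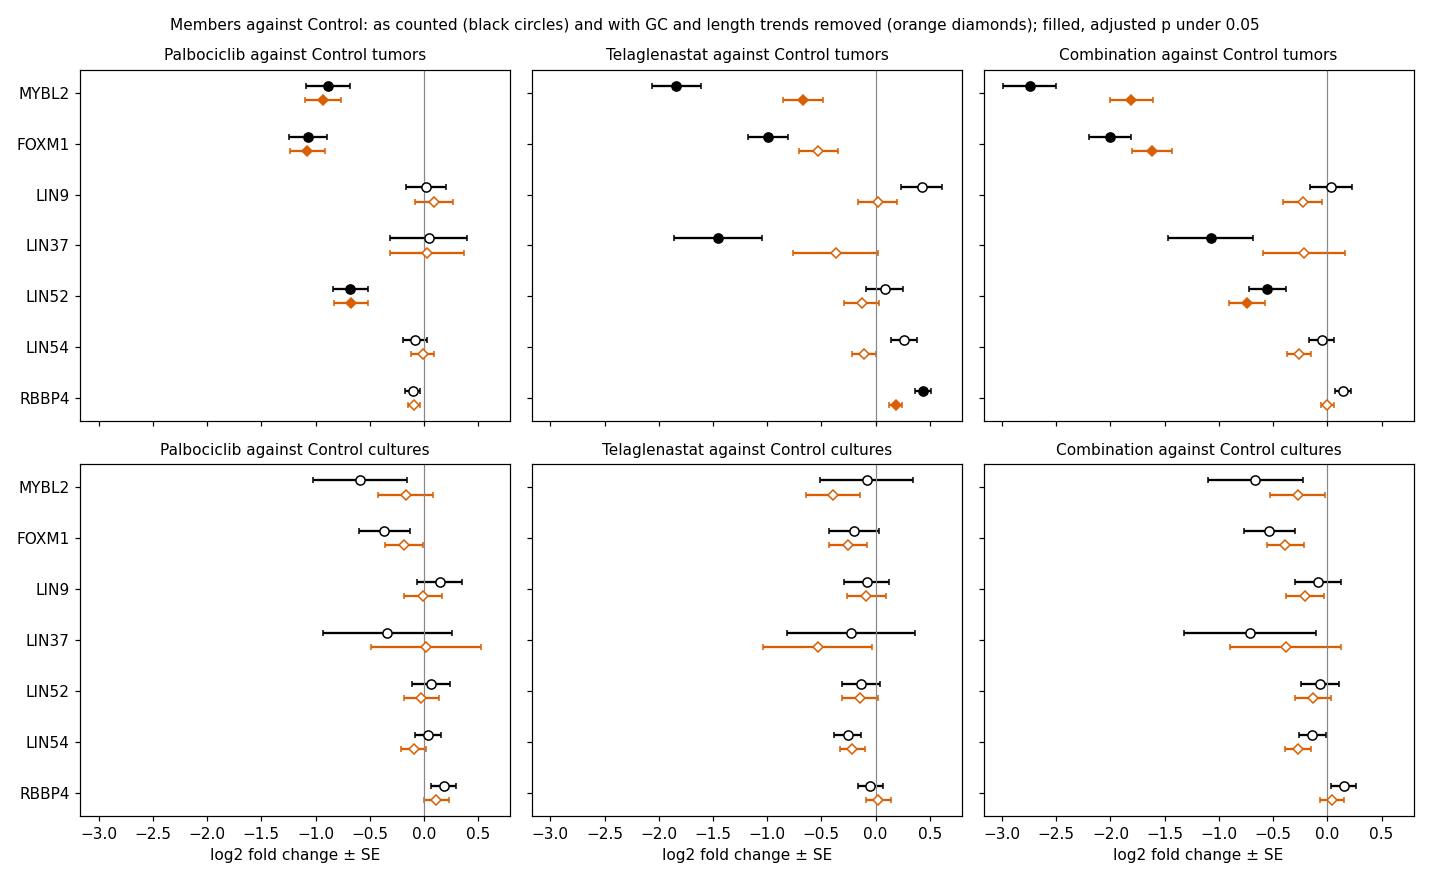
Log2 fold changes against Control with their standard errors for the 7 members, with tumors in the upper panels and cultures in the lower ones. Black circles are the values as counted and orange diamonds those with the GC and length trends removed, and filled symbols have an adjusted p under 0.05. The pairs of symbols nearly coincide for Palbociclib tumors, and for Telaglenastat tumors MYBL2 moves from -1.84 to -0.67.

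Set against each single drug, the Combination was lower for MYBL2 and FOXM1 both times. Against Palbociclib tumors, MYBL2 was lower by a log2 fold change of -1.86 ± 0.23 (adjusted p = 1.67e-06) and FOXM1 by -0.94 ± 0.18 (adjusted p = 0.000259), and without the trends by -0.87 and -0.54, each past the threshold. LIN37 was lower at -1.12 ± 0.36 (adjusted p = 0.0138), but not without the trends (-0.24) or without Combination tumor 1 (-0.93, adjusted p = 0.0514). RBBP4 was higher at 0.25 ± 0.06 (adjusted p = 0.00259), and at 0.09 and not called without the trends. This gave 3 of 7 members lower and 1 higher, against 27.5% and 20.1% of all genes.

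Against Telaglenastat tumors, which share the downward GC slope, the differences of both factors did not shrink when the trends were removed. MYBL2 was lower at -0.91 ± 0.25 (adjusted p = 0.014) and FOXM1 at -1.02 ± 0.19 (adjusted p = 0.000756), and without the trends at -1.14 and -1.09. LIN52 was lower at -0.64 ± 0.16 (adjusted p = 0.00903), and RBBP4 at -0.29 ± 0.07 (adjusted p = 0.00365). For all 4 genes the groups did not overlap, and all 4 passed with the trends removed as well. The share of all genes without overlap was not counted, here or in the other comparisons. LIN54 was at -0.31 ± 0.11 with an adjusted p of 0.0518, and it passed without Palbociclib tumor 1, 2 or 5, Telaglenastat tumor 4 or Combination tumor 1, at adjusted p of 0.0365 to 0.0479. Thus 4 of 7 members were lower and none higher, against 9.89% and 8.93% of all genes.

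The effect of both drugs was also compared with the sum of the single effects on the log2 scale. For MYBL2 the difference was -0.02 ± 0.31 with a 95% interval from -0.63 to 0.59, and for FOXM1 0.05 ± 0.26 with an interval from -0.45 to 0.56. Without the trends these were -0.21 and -0.01. No member passed in edgeR, at an unadjusted p under 0.05 or in DESeq2, where 0.0202% of all genes were lower and 0.0471% higher by edgeR. LIN52 was lower in both groups given Palbociclib, and for Telaglenastat alone its interval ran from -0.25 to 0.41.

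**Figure D3:**
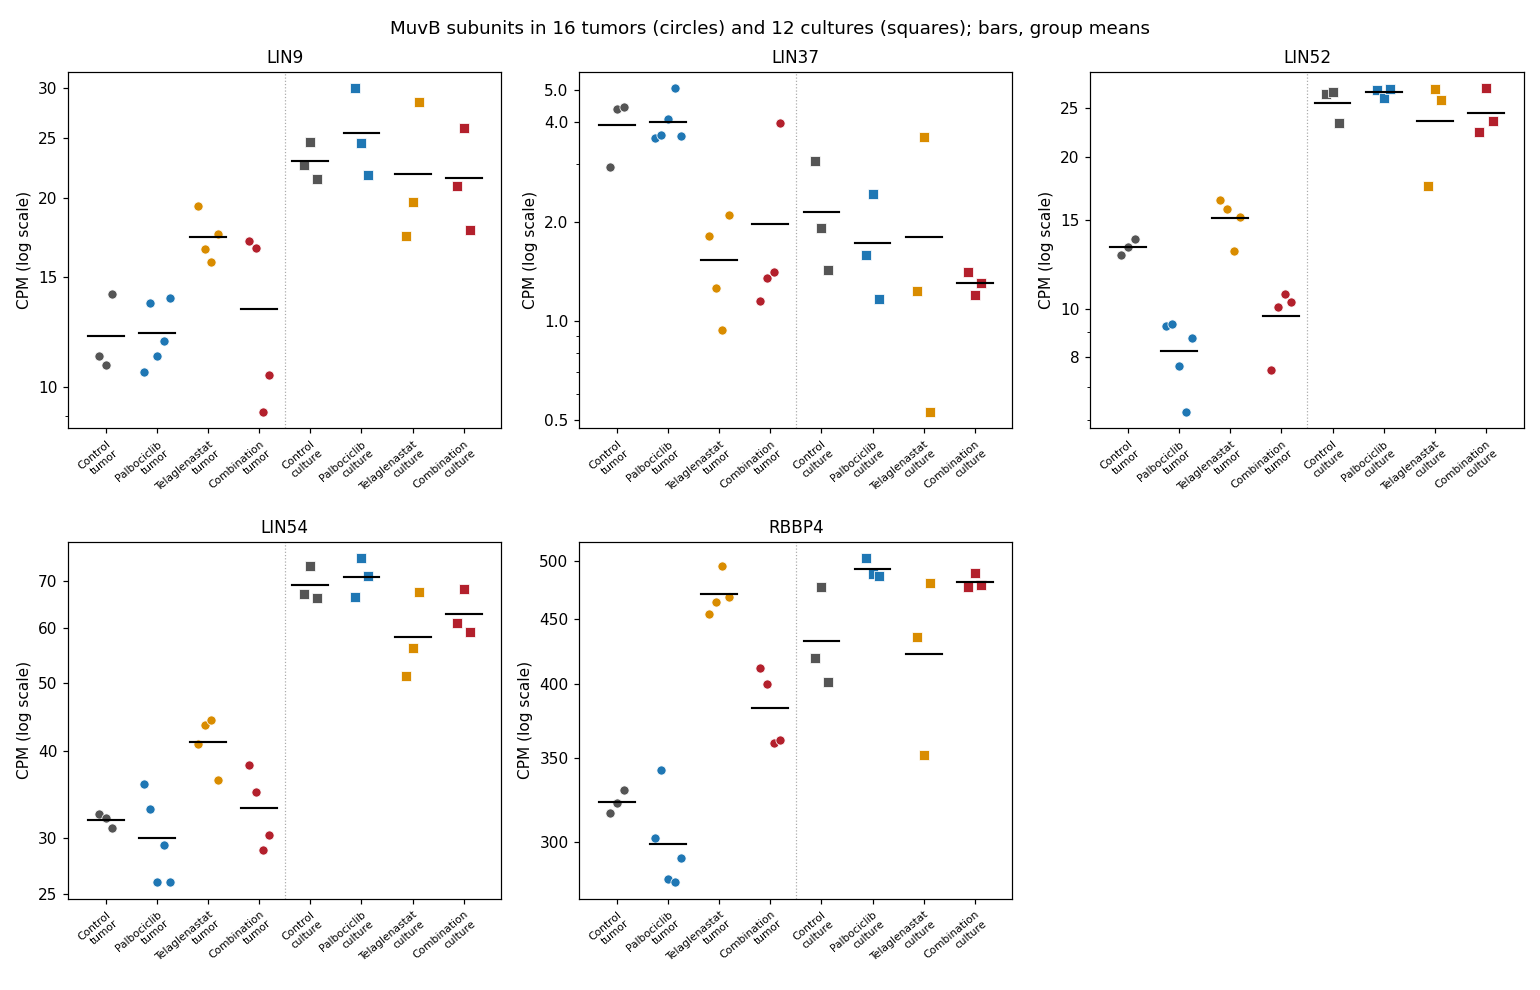
Levels of the 5 MuvB subunits in CPM on log axes, 1 point per library, in tumors (circles) and cultures (squares), with bars at the group means. LIN52 is lower in all Palbociclib and Combination tumors than in any Control or Telaglenastat tumor, and LIN9, LIN52 and LIN54 are lower in the Control tumors than in every culture.

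The balance between the factors was also examined. The ratio of MYBL2 to FOXM1 counts was 0.427, 0.5 and 0.448 in Control tumors and 0.405 to 0.625 in Palbociclib tumors. It was 0.223 to 0.302 in Telaglenastat tumors and 0.202 to 0.401 in Combination tumors, all below every Control tumor. In two-sided exact permutation tests of the log2 ratio, p was 0.393 for Palbociclib and 0.0571 for each of the other groups, which is the smallest p that 4 against 3 tumors allow, and adjusted over 6 such tests these were 0.75 and 0.171. MYBL2 transcripts are richer in GC than those of FOXM1, and the ratio was not corrected for the trend. In cultures the ratio was 0.36 to 0.768, with no group apart (exact permutation p of 0.5 to 0.8).

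The closest relatives of the members were named whatever their values. MYB (c-MYB), the founding member of the MYB family, was lower with Palbociclib at -1.16 ± 0.27 (adjusted p = 0.0119) and with the Combination at -1.03 ± 0.29 (adjusted p = 0.00732), and stood at 0.12 ± 0.28 with Telaglenastat. MYBL1 (A-MYB) did not pass in any of these, at -0.29, 0.26 and 0.12 in the order Palbociclib, Telaglenastat and Combination. RBBP7, the paralog of RBBP4, was higher with Telaglenastat at 0.33 ± 0.07 (adjusted p = 0.000877), but at 0.08 and not called without the trends. It stood at -0.22 with Palbociclib and 0.03 with the Combination, not called in either. Without the trends RBBP7 was called lower with Palbociclib, at -0.19 (adjusted p = 0.0467), and was at -0.13 and not called with the Combination. Of the MYB family only MYBL2 was called lower in all 3 treated groups. With Telaglenastat its fall was smaller without the trends, and was then not called with a replicate block added. Without the trends MYB stood at -0.14 ± 0.27 and MYBL1 at -0.03 with Telaglenastat. Whether MYBL2 changed more than its relatives was not tested. MYB was lower in Combination than in Telaglenastat tumors, at -1.14 ± 0.28 (adjusted p = 0.00636), and Palbociclib tumors were not set directly against Telaglenastat tumors.

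The partners of MuvB in DREAM (E2F4, E2F5, TFDP1, TFDP2, RBL1, RBL2 and DYRK1A) moved little with Palbociclib. Only RBL1 (p107), itself an E2F target, was lower there, at -0.55 ± 0.12 (adjusted p = 0.00867), where 3.6% of all genes were lower. The list median was -0.01, against 0.00 for all genes. With Telaglenastat 2 of 7 were lower and 4 higher, against 28.5% and 22.6% of all genes. E2F4 was at -1.20, RBL2 (p130) at 0.53 and RBL1 at 0.36, but none of the 7 passed without the trends. With the Combination 3 were lower and 2 higher, against 26.9% and 17.6% of all genes. E2F4 was at -0.88, E2F5 at 0.61 and RBL2 at 0.57. Without the trends RBL2 was the only one of these 3 still called, at 0.38, and RBL1 was called too, lower at -0.64.

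The kinases, cyclins and inhibitors that act upstream (12 genes) were split in each group. Palbociclib lowered 5 and raised 1, where 3.6% of all genes were lower and 2.55% higher. CCNE2 (cyclin E2) was at -1.51, CCNA2 (cyclin A2) at -1.01 and CDK1 at -0.84, while CCND1 (cyclin D1), the activator of CDK4/6, was higher at 0.95 ± 0.08 (adjusted p = 1.64e-06). With Telaglenastat 4 were lower and 3 higher, where 28.5% and 22.6% of all genes were, with CDKN1A (p21) at -0.89, CCND3 at -0.74 and CDK4 at -0.58, of which none was called without the trends. CCND1, at 0.02 as counted, was then the only one of the 12 called, higher at 0.69. With the Combination 6 were lower and 2 higher, against 26.9% and 17.6% of all genes. CCND1 was at 1.11, CDK6 at 1.03 and CCNE2 at -1.08, all 3 called without the trends too.

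The late targets of MYBL2, FOXM1 and MuvB, the genes of G2 and mitosis, fell with Palbociclib almost throughout. Of 30 genes in the list, 27 were lower and none higher, with a median of -0.83 against 0.00 for all genes. Over all genes 3.6% were lower and 2.55% higher. The largest changes were those of KIF20A (-1.34), a kinesin of cytokinesis, GTSE1 (-1.11), a microtubule-associated protein of G2 and mitosis, NEK2 (-1.07), a centrosomal kinase, and CENPA (-1.03), the centromeric histone H3 variant. CDC25B (-0.08), ECT2 (-0.32) and CKS2 (-0.32) did not pass. The early targets of G1 and S phase showed 14 of 20 lower and none higher, with a median of -0.56, led by CCNE2, RRM2 (-1.08), GINS2 (-0.97) and TYMS (-0.81), all of which serve DNA replication or nucleotide supply. MKI67 was at -1.05 and TOP2A at -0.91, so markers of proliferating cells were lower in the same tumors as MYBL2, FOXM1 and LIN52. The immune marker sum was 22.2 to 30.6 CPM in Palbociclib tumors, above the 14.2 to 19.6 CPM of Control tumors, with none of 3 markers tested called. Fibroblast and epithelial sums overlapped with those of Control tumors. The part of any of these markers in the values was not tested.

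With Telaglenastat the late targets were split. Of the 30, 8 were lower and 8 were higher, with a median of 0.18, shares close to the 28.5% lower and 22.6% higher over all genes. The summed level of the list was 3453 to 3742 CPM in Telaglenastat tumors and 2997 to 3143 CPM in Control tumors, so every Telaglenastat tumor was above every Control tumor. The largest changes were those of CDC20 (-1.21) and CCNF (-1.19), which act in ubiquitin ligases of the cell cycle, and AURKB (-0.92), a mitotic kinase. After removal of the trends, 1 of 30 late targets was lower and 1 higher with a median of -0.03, against 7.48% and 5.54% of all genes. None of these 3 genes then passed, whereas MYBL2 still did, though not with a replicate block added. Of the early targets 8 were lower and 5 higher, with MCM5 at -1.79, CDT1 at -1.50 and E2F1 at -1.42, and without the trends 1 was lower, MCM5 at -0.93, and 2 were higher. TOP2A was higher at 0.47 but not without the trends, and the sum of MKI67, PCNA and TOP2A was 993 to 1140 CPM against 823 to 938 CPM in Control tumors.

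With the Combination 27 of 30 late targets were lower and none higher, with a median of -0.69, and 28 were lower without the trends. Over all genes 26.9% were lower and 17.6% higher, or 13.1% in either direction without the trends. AURKB was at -2.20, CDC20 at -1.88 and GTSE1 at -1.83. Their summed level of 1612 to 2656 CPM overlapped with the 1622 to 2183 CPM of Palbociclib tumors, although MYBL2 was lower in every Combination tumor than in any Palbociclib tumor. Against Palbociclib tumors the late list had a median of 0.11, with 7 genes lower and 3 higher, where 27.5% of all genes were lower and 20.1% higher. Without the trends it had a median of -0.08 with 3 lower and none higher, against 7.6% and 6.77% of all genes. Against Telaglenastat tumors the median was -0.88 with 27 lower, and 28 without the trends, where 9.89% and 6.99% of all genes were lower. Early targets showed 17 of 20 lower with a median of -0.88, and 17 with a median of -0.70 without the trends, among them CDT1 at -1.996, MCM5 at -1.93 and E2F1 at -1.71. MKI67 (-1.22), TOP2A (-0.63) and PCNA (-0.47) were lower too.

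**Figure D4:**
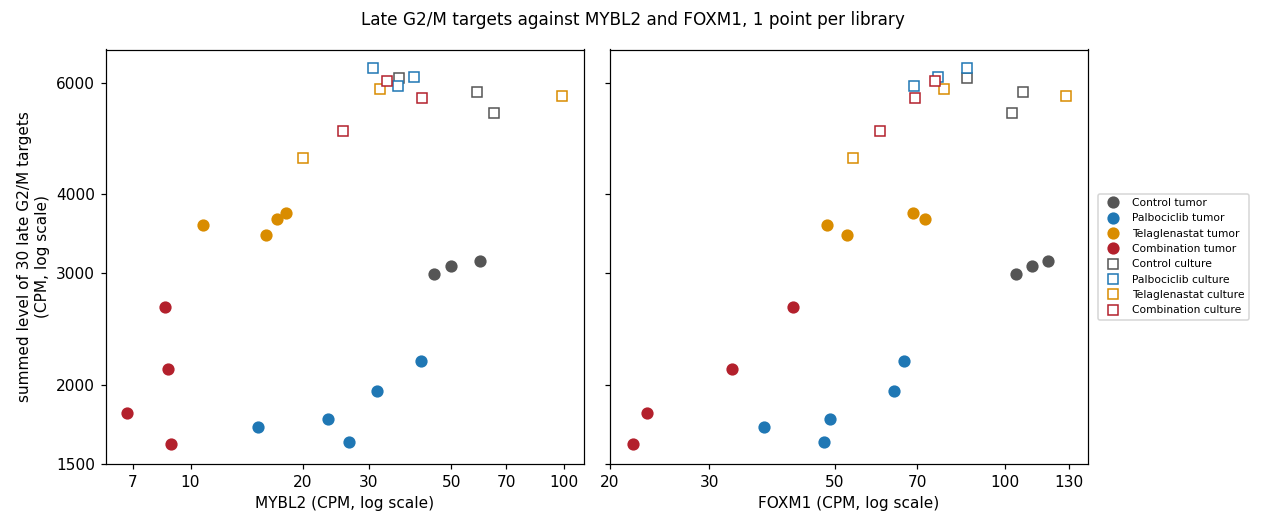
Summed level of the 30 late G2/M targets in CPM against the level of MYBL2 (left) or FOXM1 (right) in CPM, on log axes, with 1 point per library. Telaglenastat tumors combine low MYBL2 (10.8 to 18.02 CPM) with target sums of 3453 to 3742 CPM, above the Control tumors, while Palbociclib and Combination tumors lie at 1612 to 2656 CPM over a wide range of MYBL2. Levels and sums are not corrected for the GC trend. With the trends removed, 1 of the 30 targets was lower and 1 higher in Telaglenastat than in Control tumors, and the fall of MYBL2 was smaller.

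In the lines grown without drug, no member passed the test between treatments. MYBL2 was at 58.4, 36.2 and 65.0 CPM in Control lines, 39.6, 35.9 and 30.8 CPM in Palbociclib lines, 19.996, 98.7 and 32.2 CPM in Telaglenastat lines and 25.7, 33.6 and 41.6 CPM in Combination lines. FOXM1 was at 85.6 to 108 CPM in Control lines, 69.0 to 85.7 CPM in Palbociclib lines, 53.9 to 128 CPM in Telaglenastat lines and 60.1 to 75.3 CPM in Combination lines. The Telaglenastat lines alone spanned the whole range of the other groups for both factors, while every Combination line was below every Control line for FOXM1. Over the 5 comparisons among cultures edgeR called no member, and DESeq2 called none. At an unadjusted p under 0.05 there was 1, FOXM1 in Combination against Control lines, at -0.54 ± 0.23 (adjusted p = 0.681). In these comparisons the share of all 13985 genes called was 0% in each direction, except for 0.00715% lower in Combination against Control lines.

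The spread between lines leaves room for sizeable differences. For MYBL2 the log2 fold change against Control lines was -0.59 ± 0.44 for Palbociclib, -0.08 ± 0.43 for Telaglenastat and -0.66 ± 0.44 for Combination lines, the last with a 95% interval from -1.52 to 0.19. Without Telaglenastat culture 2, Telaglenastat lines stood at -1.04 ± 0.27 for MYBL2 (adjusted p = 0.13) and at -0.59 ± 0.17 for FOXM1 (adjusted p = 0.154), short of the threshold. Combination against Telaglenastat lines turned from -0.58 ± 0.43 to 0.37 ± 0.27 for MYBL2 without it, neither called. The MYBL2 value of Telaglenastat against Control lines was 0.29 without Telaglenastat culture 1 and 0.14 without culture 3, so its sign depended on which line was left out. Except for LIN37 the subunits were steadier, with LIN52 at 17.5 to 27.4 CPM, LIN54 at 51.2 to 75.4 CPM and RBBP4 at 351 to 503 CPM over all 12 lines. LIN9 was at 17.4 to 29.99 CPM. LIN37 ran from 0.529 to 3.62 CPM within the Telaglenastat lines alone, on 4 to 40 counts. RBBP4 was higher in all 3 Palbociclib lines (487 to 503 CPM) than in any Control line (402 to 477 CPM), a log2 fold change of 0.18 ± 0.12 (adjusted p = 0.795). None of the 30 late or 20 early targets was called in any comparison among cultures.

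Tumors and cultures differed in 4 of the subunits, and neither factor passed the test. Between Control tumors and Control lines, LIN54 was lower in tumors at -1.11 ± 0.13 (adjusted p = 9.03e-08), LIN52 at -0.95 ± 0.17 (adjusted p = 3.37e-05), LIN9 at -0.93 ± 0.21 (adjusted p = 0.000772) and RBBP4 at -0.42 ± 0.10 (adjusted p = 0.00068). MYBL2 was at -0.05 ± 0.36 and FOXM1 at 0.18 ± 0.23, and neither passed. This is 4 of 7 members lower and none higher, against 22.8% and 23.1% of all 15466 genes tested. With the trends removed these 4 were still called, at -0.83, -0.72, -0.54 and -0.31 in the same order, and MYBL2 was called as well, at -0.72. Both target lists were lower in tumors, the late one in 24 of 30 genes and the early one in 16 of 20, and the sum of MKI67, PCNA and TOP2A was 823 to 938 CPM in Control tumors and 1511 to 1719 CPM in Control lines. Fibroblast markers summed to 4.22 to 5.34 CPM in these lines. Their part in the differences was not tested.

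The effect of each treatment in tumors was tested against its effect in cultures. With the Combination the fall was larger in tumors for MYBL2, by -1.99 ± 0.52 (adjusted p = 0.0376), and for FOXM1, by -1.37 ± 0.33 (adjusted p = 0.0268), 2 of 7 members lower and none higher against 0.795% and 2.11% of all genes. Both were called without the trends as well, at -1.50 and -1.21. The adjusted p was close to the threshold, and leaving out any 1 library of these 4 groups other than Control culture 3 took the call from MYBL2, at values from -2.14 to -1.77 and adjusted p of 0.0527 to 0.127. FOXM1 lost its call without Control tumor 2 or 3, Combination tumor 3, Control culture 2 or Combination culture 2 or 3, at -1.39 to -1.24 and adjusted p of 0.0505 to 0.0888.

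With Telaglenastat the difference was -1.67 ± 0.50 for MYBL2 (adjusted p = 0.0121), 0.62 ± 0.17 for LIN54 (adjusted p = 0.00823) and 0.58 ± 0.13 for RBBP4 (adjusted p = 0.00164). This was 1 of 7 lower and 2 higher, against 18.5% and 15.6% of all genes, and none of the 3 was called without the trends, at -0.28, 0.11 and 0.16. Without Telaglenastat culture 2, MYBL2 was at -0.71 ± 0.38 (adjusted p = 0.187), while LIN54 and RBBP4 were still called. FOXM1, at -0.70 (adjusted p = 0.0938), was called without Telaglenastat culture 1, at -0.95 (adjusted p = 0.0137), and LIN9, at 0.60 (adjusted p = 0.11), without culture 3, at 0.83 (adjusted p = 0.0233). With Palbociclib no member was called by edgeR. At an unadjusted p under 0.05 there were 3, all lower (FOXM1, LIN52 and RBBP4), and DESeq2 called 1 of them, LIN52, which edgeR put at -0.75 ± 0.22 (adjusted p = 0.0885). The shares of all genes were 1.03% lower and 0.356% higher.

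Over all 8 conditions, the mean MYBL2 level ran in the order Control culture (53.2 ± 15.1 CPM), Control tumor (51.5 ± 7.54), Telaglenastat culture (50.3 ± 42.4), Palbociclib culture (35.5 ± 4.41), Combination culture (33.6 ± 7.99), Palbociclib tumor (27.6 ± 9.78), Telaglenastat tumor (15.4 ± 3.21) and Combination tumor (8.21 ± 0.969). Only the last pair of neighbors had ranges that did not overlap. These levels are not corrected for the GC trend, and the order of MYBL2 depends on it. With the trends removed, its fitted fall against Control was larger in Palbociclib than in Telaglenastat tumors, but the difference between these groups was not tested. Control tumors were then also below Control lines for MYBL2. For FOXM1 the order was Control tumor (112 ± 7.21 CPM), Control culture (98.9 ± 11.8), Telaglenastat culture (86.8 ± 38.0), Palbociclib culture (76.99 ± 8.35), Combination culture (68.3 ± 7.68), Telaglenastat tumor (60.5 ± 11.8), Palbociclib tumor (52.9 ± 12.05) and Combination tumor (30.1 ± 9.42), and every pair of neighbors overlapped. For LIN52 and LIN54 all 4 culture groups came first, and the gap between cultures and tumors was free of overlap. LIN52 had another gap, between Control tumors (13.2 ± 0.477 CPM) and Combination tumors (9.64 ± 1.42). For RBBP4 the gap lay between Combination tumors (383 ± 26.7 CPM) and Control tumors (323 ± 7.04), and for LIN9 and LIN37 all neighbors overlapped.

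The genes whose log2 level ran closest to MYBL2 over the 16 tumors, by Pearson's r among 12944 genes, were MCM7 (0.986), TUBA1B (0.982), SNRPB (0.981), TROAP (0.978) and CDC20 (0.977). For FOXM1 they were HNRNPL (0.973), PLK1 (0.969), TUBB (0.967), KIFC1 (0.964) and FEN1 (0.964). Over the 12 lines, the nearest to MYBL2 were DHX38 (0.985), MYO19 (0.979), MCM7 (0.976), PGD (0.974) and NOC2L (0.974), and the nearest to FOXM1 were CDC20 (0.988), SRM (0.977), QSOX2 (0.977), GEMIN4 (0.975) and CDCA8 (0.969). MCM7, a subunit of the replicative helicase, was on both lists of MYBL2. These libraries share group and GC trend, and the cultures include Telaglenastat culture 2, so the values describe likeness only.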

How the data were processed

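RNA of 16 residual xenograft tumors and 12 tumor-derived lines was measured, in groups of 3 to 5 taken from the labels. The authors purified poly(A) RNA, marked the second cDNA strand with uracil, read the libraries from a single end, used CASAVA 1.8 and STAR per the submitters' processing notes (build hg38), and deposited raw counts per gene and library, without pooling. Reads were aligned by them to the Ensembl genome. The annotation release and the strand setting of the counting are not given in the sources used here. Counts ranged from 6273834 to 13815675 per library, and all 37 pairs of libraries within groups differed by more than sampling noise (mean chi-square per gene 4.02 to 47.0).

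Tests used edgeR 4.0.16 (quasi-likelihood, TMM, filterByExpr with a minimum count of 10, Benjamini-Hochberg at 0.05) in R 4.3.3, in 1 fit of the tumors (14848 genes), 1 of the cultures (13985) and 1 of all 28 libraries (15466) for tumors against cultures. The script was tested on simulated data. CPM uses the scaling of the 28-library fit. GENCODE 29 (57940 of 58278 gene IDs matched) supplied positions, lengths and GC content. DESeq2 1.42.0, other scalings and filters, a replicate block, removal of smooth GC and length trends, and leaving out each library were alternatives. Log2 values for likeness used a prior count of 2. The fits pool the spread over groups, so with a library left out the rest of its group is taken to vary like the others. The labels do not tie libraries to animals, so p-values measure the spread between these samples, which may be technical.

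The members and the gene lists were chosen with earlier results of these data known. All members, MYB, MYBL1 and RBBP7 are named, and of each list the 4 (Palbociclib) or 3 (other treatments) called genes with the largest changes against Control tumors; genes of a list that did not pass were named after their values were seen. CCNA2 and CDK1 stand in the upstream and late lists, CCNE2 in the upstream and early lists, and TOP2A and PCNA are also proliferation markers.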

Additional observations from a re-analysis of the deposited data

Results flagged for a closer look

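Among 21 sets of 4 or 5 tumors (7 members in 3 groups), 2 had a tumor apart from the rest by Dixon's test, where chance gives about 1 in 20. Combination tumor 4 had the lowest MYBL2 level, 6.77 CPM against 8.54 to 8.84 CPM in the other tumors of the group. The same tumor had the highest LIN37 level, 3.97 CPM against 1.15 to 1.4 CPM, from 27 counts.

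Effects that differed between tumors and cultures in the joint fit were those of Telaglenastat on MYBL2 (log2 difference -1.67, tumors minus cultures), LIN54 (0.62) and RBBP4 (0.58), and those of the Combination on MYBL2 (-1.99) and FOXM1 (-1.37). The 21 effects compared are the 7 members under 3 treatments. Over all genes 18.5% were lower and 15.6% higher for Telaglenastat, and 0.795% and 2.11% for the Combination. No Telaglenastat difference was called with the GC and length trends removed, and that of MYBL2 was also lost without Telaglenastat culture 2. Both Combination calls were lost when certain single libraries were left out.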

How the results depend on the processing

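Leaving out 1 library at a time, members called numbered 1 to 3 for Palbociclib against Control tumors (1 without Control tumor 2), 0 to 1 for the Palbociclib effect in tumors minus in cultures (1, LIN52, without Telaglenastat culture 1) and 0 to 2 for the Combination effect. Removing the GC and length trends changed the count from 4 to 2 for Telaglenastat against Control tumors and for Combination against Palbociclib tumors, and from 3 to 0 for the Telaglenastat effect in tumors minus in cultures. Together with the replicate block the counts were 1, 2 and 0. The shares of all genes called fell as well. Without the trends they were 7.48% lower and 5.54% higher for Telaglenastat against Control tumors. For Combination against Palbociclib tumors they were 7.6% and 6.77%, and for the Telaglenastat effect 2.59% and 1.23%. With no filter on low counts, 2 in place of 4 members were called for Combination against Control tumors, and 1 in place of 0 for Combination against Control cultures (MYBL2), Combination against Telaglenastat cultures (MYBL2) and the Palbociclib effect (FOXM1). DESeq2 called 1 in place of 0 for the Palbociclib effect.

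With the replicate block alone, 1 in place of 2 members was called for the Combination effect, where MYBL2 at -1.92 lost its call, and LIN52 lost it for Palbociclib against Control tumors (-0.69), while LIN54 gained one for Telaglenastat against Control tumors (0.30) and for Combination against Telaglenastat tumors (-0.32); the block changed no other call. The numbers do not pair the samples: the labels name no shared animal or day, and deviations of same-numbered libraries correlated at -0.128 to 0.0896 in 21 tumor pairs and -0.423 to 0.14 in 18 culture pairs. For Control tumors against Control cultures no block could be fitted. In the fit of all 28 libraries MYBL2 lost its call for Palbociclib against Control tumors and for Combination against Telaglenastat tumors, and the cause was not tested. That fit shifted the median gene by 0.108 for Telaglenastat and 0.102 for Combination against Control tumors, and by 0.105 for Combination against Palbociclib tumors. No called change of a member reversed; of the results on single members outside the left-out libraries, 803 were on the same side of the threshold, 28 lost a call and 21 gained one. Per length, 41 of 56 group means moved by more than 1 SD with the longest transcript as length. LIN37, with 4 to 49 counts, was the member most limited by depth.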
